A study of Mus musculus with 34 samples.

Results

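Leptin given for 16 days and 4 weeks of high-fat diet were set against each other in cumulus cells (CCs), the granulosa cells that surround the oocyte, by asking for every gene how the leptin effect differed from the diet effect. The leptin effect was the log2 change from saline-injected mice (16 C) to leptin-injected mice (16 L), the diet effect was the log2 change from mice on chow diet (4-week CD) to mice on high-fat diet (4-week HFD), and the difference of effects was the first minus the second. Of the 34 libraries of the series, 18 belong to these 4 groups, with 3 in 16 C, 5 in 16 L, 5 in 4-week CD and 5 in 4-week HFD. Of the 25965 genes in the count table, 12947 had enough reads to be tested. All mice were C57BL/6J females that entered the protocols at 8 weeks of age. The 16 L mice received 100 µg of leptin per day in 2 intraperitoneal injections for 16 days and the 16 C mice received saline on the same schedule. The 4-week HFD mice drew 58% of their energy from fat and the 4-week CD mice 11%. The labels describe about 50 cells per library, taken from a cumulus-oocyte complex after hormonal stimulation of ovulation. Each effect has its own control group, and the controls of the 2 experiments differ in injection, feeding period and age at collection, so the comparison is of 2 changes and not of 4 levels. Libraries are named by group and label number, and per-library values are given in the order 1, 2 and 3 for 16 C, 18, 19, 20, 21 and 23 for 16 L, 1, 2, 7, 8 and 11 for 4-week CD, and 3, 4, 5, 13 and 14 for 4-week HFD.

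Leptin is a hormone of adipose tissue that acts through a cytokine receptor, Lepr, and through JAK and STAT proteins, with PI3K and MAPK branches and with Socs3 as a feedback inhibitor. CCs feed the oocyte with pyruvate, amino acids and cholesterol through gap junctions, make progesterone, and spin a hyaluronan-rich matrix at ovulation. A high-fat diet raises circulating leptin in mice together with insulin, lipids and glucose, so a pharmacological dose of leptin in lean mice and an early diet share the hormone but not the rest of the metabolic setting. The comparison therefore asks which gene groups respond unlike to the hormone and to the diet.

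Levels are given as CPM, reads scaled to a common effective library size, which is the total count multiplied by the TMM factor. Total counts ranged from 1104611 to 13207018 per library. The 16 C libraries stood apart in composition. Their 50 most abundant genes took 30.7% to 34.6% of the counts, against 13.4% to 20.2% in the other 15 libraries, and their TMM factors were 0.527 to 0.651. All 15 cumulus and granulosa markers had reads in each group, and their summed level was 21267 to 54218 CPM in 16 C and 6003 to 13963 CPM in the other 3 groups. The gap junction gene Gja1 made up most of this sum in each 16 C library, in 16 L 18 and in 16 L 19. In the difference of effects, 3 of the 15 markers were called higher and 3 lower. Library 16 L 18 stood apart from the rest of 16 L. Its oviduct epithelium markers summed to 40674 CPM, with 144 to 2214 CPM in the other 16 L libraries and 141 to 359 CPM in the 4-week libraries, and its theca and stroma markers summed to 2218 CPM, with 16.0 to 77.1 CPM in the other 16 L libraries. Red blood cell markers summed to 18375 CPM in 16 L 18 and 6610 CPM in 16 L 21, and were at 130 CPM or below in every other library. Macrophage and neutrophil markers summed to 1738 CPM in 16 L 20 and 1866 CPM in 16 L 23, with 1034 CPM in 16 C 2 and 83.5 to 564 CPM elsewhere. Oocyte markers reached 685 CPM in 4-week HFD 5 and were at most 75.4 CPM elsewhere. Reads on mitochondrial genes were 0.335% to 0.654% of the counts in the leptin experiment, apart from 4.71% in 16 L 19, and 0.828% to 7.72% in the 4-week experiment. The part of these differences in the results below was not tested, and results are given with and without 16 L 18. In bulk libraries fewer cells of a type and less RNA per cell cannot be told apart.

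**Figure D1:**
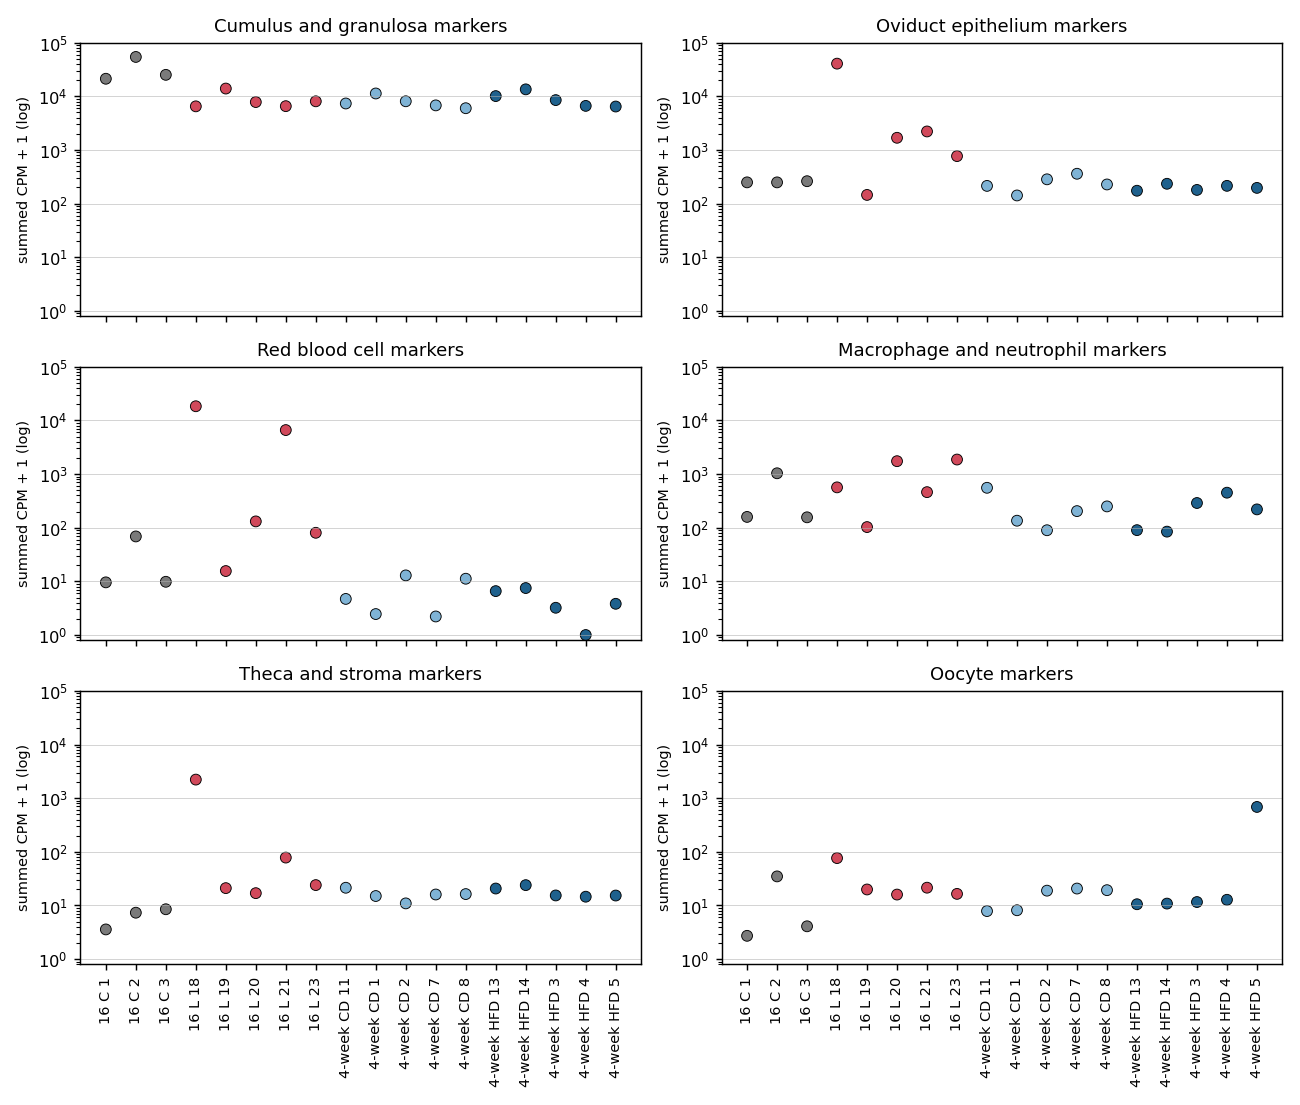
Summed level of 6 marker lists in each of the 18 libraries (vertical axes, CPM plus 1, log scale; colours mark the 4 groups). Oviduct, red blood cell and stromal genes peak in 16 L 18, red blood cell genes are also high in 16 L 21, macrophage genes are highest in 16 L 20 and 16 L 23, and oocyte genes are highest in 4-week HFD 5.

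The leptin effect and the diet effect differed for 3521 genes. The difference was positive, with the leptin effect above the diet effect, in 2113 genes (16.3% of those tested), and negative in 1408 (10.9%), by edgeR's quasi-likelihood test at an adjusted p of 0.05. The split depended on the scaling, since the median difference over all genes was 0.28. With libraries scaled by their total counts it was 1.29, with 5383 genes positive and 529 negative, and with libraries scaled to the same median level it was 0.13, with 1810 positive and 1683 negative. Medians of gene lists are therefore given relative to the median of all genes. Without 16 L 18 the difference was called in 5542 of 12739 genes, of which 3019 (23.7%) were positive and 2523 (19.8%) negative. Of the 2113 positive genes, 2008 were positive again in that fit, which is 95% of the first list and 66.5% of the second. All 1408 negative genes were called again, which is 55.8% of the 2523.

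The leptin effect was the larger side of the subtraction. In the fit of the 18 libraries, 3850 genes were called in the leptin effect (29.7%) and 0 in the diet effect, for which 1740 genes passed an unadjusted p of 0.05, 192 were called by DESeq2 and 4106 by limma-voom with sample quality weights. The leptin effect was the larger of the 2 in size in 72.6% of all genes tested, in 89.8% of the positive genes and in 91.6% of the negative ones. The group whose mean stood farthest from the other 3 was 16 C in 52.8% of all genes, in 68.3% of the positive and in 83.5% of the negative genes. The 2 effects pointed in opposite directions in 61.9% of all genes tested, and in 89.2% and 87.4% of the positive and negative genes, a share that choosing genes for a large difference raises by itself. Over the 12947 genes the Pearson correlation of the 2 effects was -0.28 and the Spearman correlation -0.33, and both effects come from groups that share no library. Genes are not independent replicates, so no p is given. The estimated variation between libraries also differed between the experiments, with a biological coefficient of variation of 0.648 in the leptin experiment, 0.437 without 16 L 18, and 0.357 in the 4-week experiment.

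**Figure D2:**
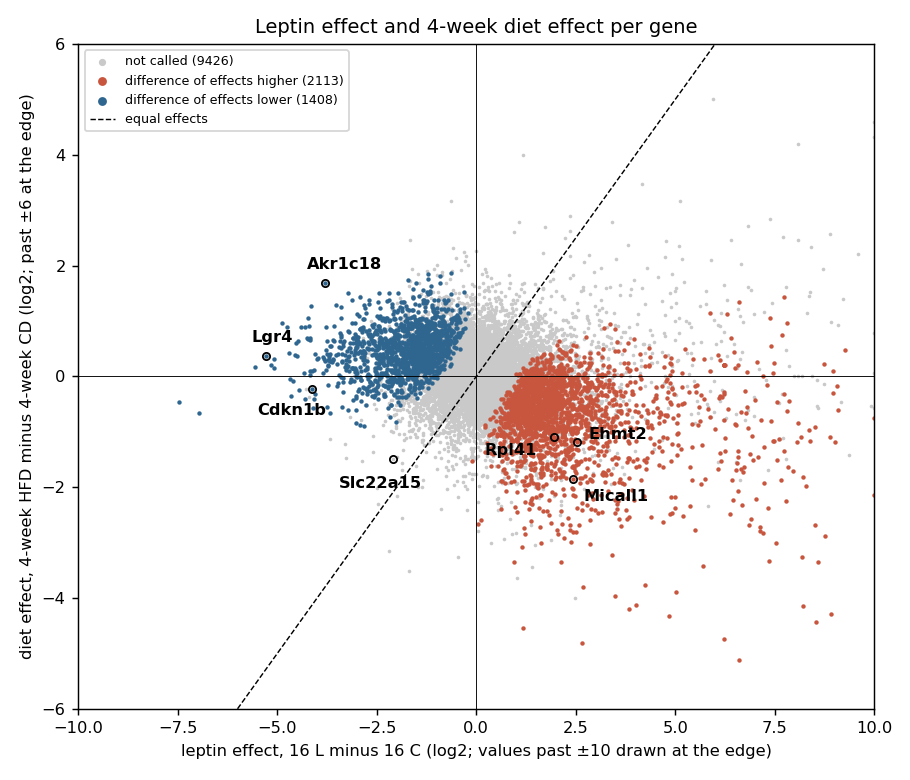
Leptin effect (horizontal axis, log2) against 4-week diet effect (vertical axis, log2) for the 12947 genes tested, coloured by the call in the difference of effects. The 2113 positive genes lie to the right of the dashed line of equal effects and the 1408 negative genes to its left, and both clouds are wider along the leptin axis than along the diet axis.

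In the median over genes called without it in both the difference and the leptin effect, library 16 L 18 lay between 16 C and the other leptin libraries. For single genes such as Akr1c18 and Hspg2 this library lay below both. Of the genes called in both without 16 L 18, this library was nearer to the 16 C mean than to that of the other 4 leptin libraries in 66.0% of 2463 positive genes. The share was 64.9% of 2156 negative genes. On a scale from 0 at the 16 C mean to 1 at the mean of the other leptin libraries, its median position was 0.204 and 0.263. The other 4 libraries, each placed against the mean of the remaining leptin libraries without 16 L 18, had median positions of 0.715 to 1.16. The genes were picked by calls that used these 4 libraries and not 16 L 18. That choice favours positions near 1 for the 4 and a smaller one for 16 L 18, so the positions are a description.

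In each of the 10 genes with the largest negative difference, every 16 C library lay above the other 15 libraries. Among them are genes for a receptor, enzymes and a matrix protein. All 10 were below every 16 C library in each of the 5 leptin libraries, as were 11.8% of all genes tested, and in 1 of the 10 all 4-week HFD libraries lay above all 4-week CD libraries, as in 3.02% of all genes. These genes were picked by the size of the difference, so their values are a description.

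Lgr4 (chromosome 2, 109917647 to 110014257, plus strand), the R-spondin receptor that strengthens Wnt signals, was at 10248, 14687 and 11223 CPM in 16 C and at 941, 211, 94.3, 131 and 163 CPM in 16 L. In the 4-week experiment it was at 707, 141, 399, 349 and 509 CPM on chow and 566, 422, 364, 811 and 552 CPM on high-fat diet. The 2 diet groups overlapped and both lay within the range of the leptin libraries. The difference was -5.65 (standard error 0.84, adjusted p = 0.000397), and without 16 L 18 it was -6.69. Akr1c18 (chromosome 13, 4132615 to 4150654, minus strand), which encodes the enzyme that inactivates progesterone, moved in both experiments. Its level was 4778, 4936 and 4674 CPM in 16 C and 7.16, 776, 257, 281 and 384 CPM in 16 L, and rose from 1321, 377, 1124, 439 and 1020.5 CPM in 4-week CD to 1797, 2569, 2450.0, 2552 and 4376 CPM in 4-week HFD. All leptin libraries lay below 16 C and all high-fat libraries above chow, with a difference of -5.50 (standard error 0.99, adjusted p = 0.00131), or -5.18 without 16 L 18. Spp1 (chromosome 5, 104435118 to 104441050, plus strand), which encodes the matrix protein osteopontin, was the most abundant of the 10. It took 84719, 39859 and 78378 CPM in 16 C and 119.9, 9465, 2658, 2701 and 4044 CPM in 16 L, with 18829, 5556, 7277, 3345 and 26547 CPM on chow and 34288, 32405, 31799, 25981 and 23434 CPM on high-fat diet. Its 16 C libraries lay above all others, while its chow and high-fat libraries overlapped, and its difference was -5.42 (standard error 1.09, adjusted p = 0.00261). Idh1, the cytosolic NADP-dependent isocitrate dehydrogenase, had a group mean of 31483 ± 4793 CPM (SD, n = 3) in 16 C, 1599.6 ± 1455 CPM (SD, n = 5) in 16 L, 3038 ± 1516 CPM (SD, n = 5) in 4-week CD and 5630.0 ± 1589 CPM (SD, n = 5) in 4-week HFD, and a difference of -5.19. Map3k1, a kinase at the head of the JNK cascade, had the largest negative difference of the 10, -5.86 (adjusted p = 0.0006), with 3404, 4392 and 2809 CPM in 16 C and 366, 111, 39.4, 43.3 and 33.5 CPM in 16 L. The N-myristoyltransferase gene Nmt2 (-5.65), the septin gene Sept2 (-5.12), the adhesion gene Igsf11 (-5.36), the phosphatase subunit gene Ppp1r16b (-5.40) and the tight-junction gene Cldn18 (-5.15) complete the 10. Igsf11 had the smallest adjusted p of them, 2.15e-06, at 1700.0, 3913 and 2789 CPM in 16 C and 54.9 to 116 CPM in 16 L.

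The 10 genes with the largest positive difference are genes of macrophages, of the oviduct, of blood and of the acute-phase response, and each had its highest level in 16 L 18, 16 L 20 or 16 L 23. These 10 were also picked by the size of the difference. Of the marker lists, 1 of 14 macrophage and neutrophil markers, 5 of 12 oviduct markers and 1 of 4 red blood cell markers were called higher. None of these was called lower, and 16.3% of all genes were called higher. Saa3 (chromosome 7, 46711998 to 46715676, minus strand), an acute-phase protein gene, was at 9.44, 44.8 and 7.94 CPM in 16 C and 24.9, 3.11, 3900.3, 585 and 4855 CPM in 16 L, with 90.7, 34.4, 115, 184 and 329 CPM on chow and 59.3, 47.0, 20.8, 23.7 and 9.68 CPM on high-fat diet. Only 16 L 20, 21 and 23 were high, and the high-fat libraries lay mostly below the chow libraries, with a difference of 8.68 (standard error 2.12, adjusted p = 0.00783). Marco, a scavenger receptor of macrophages, was at 2.45, 0, 82.8, 3.93 and 110.4 CPM in 16 L and had 3 reads in 16 C in all. Cd5l, a protein secreted by macrophages, was at 0, 0.429, 82.3, 11.8 and 96.1 CPM in 16 L with 2 reads in 16 C, and Serpinb2, a protease inhibitor of activated macrophages, was at 0, 0, 71.8, 8.65 and 91.2 CPM with 1 read in 16 C. These 3 genes were high in the libraries with the highest macrophage marker sums, 16 L 20 and 16 L 23, and were not called without both. Serpinb2 was also not called without 16 C 3, at an adjusted p of 0.0513 in that fit. Complement genes C3 (390.2, 0.750, 87.8, 56.6 and 68.6 CPM in 16 L, 0, 2.73 and 0 CPM in 16 C) and C4b (7.35, 0.536, 51.4, 1.57 and 44.8 CPM in 16 L, 2 reads in 16 C) and the lipoxygenase gene Alox15 (258, 0.214, 28.4, 11.0 and 11.7 CPM in 16 L, 1 read in 16 C) were called with and without 16 L 18, and again without 16 L 20 and 23. Fitted sizes are not given for genes with 1 to 3 reads in 16 C, since they depend on the prior count.

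Ovgp1, which encodes the oviduct-specific glycoprotein, was at 37001, 7.40, 1240.2, 1908 and 318 CPM in 16 L and 29.2, 124 and 44.6 CPM in 16 C, so its difference of 8.00 fell to 4.74 without 16 L 18. Hbb-b1, a beta globin gene whose near-identical copies make its count uncertain, was at 5436, 9.86, 83.8, 3812 and 41.8 CPM in 16 L and 4.29, 25.5 and 7.06 CPM in 16 C. Both genes lost their call without 16 L 18 and 21 together, at 4.00 and 2.50, and without 16 C 1 or 16 C 3, at 7.63 and 7.76 for Ovgp1 and at 7.60 and 7.68 for Hbb-b1. The lactoferrin gene Ltf was at 232, 2.79, 16.5, 58.2 and 9.79 CPM in 16 L with 7 reads in 16 C, and lost its call without 4-week CD 7 and without 16 C 3, at 5.45 and 6.65. Of the 10 positive genes, 3 had all leptin libraries above all 16 C libraries, as did 10.1% of all genes tested.

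Genes that moved in both experiments were counted next. In the fit of the 18 libraries there were 0, since no gene was called in the diet effect. Without 16 L 18, 5598 genes were called in the leptin effect (43.9%) and 52 in the diet effect (0.408%), and 27 of the 52 moved against a called leptin effect and 2 with one. With each effect fitted on the libraries of its own experiment, 1004 of 11723 genes were called in the leptin effect (8.56%) and 499 of 11727 in the diet effect (4.26%). The overlap of these separate fits was counted after the counts above had been seen. Of the 24 genes called in both, 21 moved in opposite directions and 3 in the same direction, and all 21 were also called in the difference of effects. Effects of opposite sign add up in the difference, so the last count follows largely from how the genes were picked. The 24 were picked by calls in these same libraries, which favours groups that do not overlap, so separations given below are a description. For these genes each effect is given from the separate fits and the difference from the fit of the 18 libraries, so they need not add up.

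Of the 21, 4 fell with leptin and rose with high-fat diet. Akr1c18 changed by -3.75 with leptin (adjusted p = 0.0449) and by 1.66 with diet (adjusted p = 0.029). Spcs3 (chromosome 8, 54520433 to 54529998, minus strand), a subunit of the signal peptidase of the endoplasmic reticulum, was at 1063, 847 and 1027 CPM in 16 C and 237, 231, 70.8, 64.5 and 106 CPM in 16 L, and at 118, 70.2, 81.9, 64.2 and 168 CPM on chow and 204, 166, 161, 252 and 326 CPM on high-fat diet. Its leptin libraries all lay below 16 C, while the diet groups overlapped at 1 chow library, and the effects were -2.71 and 1.12. Pros1, the vitamin K-dependent protein S that also binds TAM receptors, changed by -2.05 and 1.23, and the choline transporter gene Slc44a1 by -2.09 and 1.00. In all 4 every leptin library lay below 16 C, and in 3 every high-fat library lay above chow.

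The other 17 rose with leptin and fell with high-fat diet. In 16 of them all leptin libraries were above 16 C and in 14 all high-fat libraries were below chow, against 10.1% and 3.41% of all genes tested. Picking genes by their calls favours such separation, so these counts are a description. Ehmt2 (chromosome 17, 34898469 to 34914052, plus strand), the methyltransferase of lysine 9 on histone H3, was at 8.59, 16.8 and 16.3 CPM in 16 C, 33.2, 42.1, 106, 142 and 94.9 CPM in 16 L, 64.6, 117, 76.5, 103 and 42.3 CPM on chow and 40.4, 36.9, 39.7, 34.9 and 24.4 CPM on high-fat diet. Its leptin libraries all exceeded 16 C and its high-fat libraries all lay below chow, with effects of 2.61 and -1.21 and a difference of 3.73 (adjusted p = 0.000624). Micall1, an endosomal recycling protein, had the most negative diet effect of the 17, -1.86, beside a leptin effect of 2.51. Its levels were 6.87, 17.8 and 14.6 CPM in 16 C, 107, 23.9, 102, 66.1 and 65.5 CPM in 16 L, 89.7, 138, 45.6, 70.1 and 22.4 CPM on chow and 18.2, 17.9, 18.7, 21.4 and 24.3 CPM on high-fat diet. The Polycomb gene Cbx6 (3.40 and -1.68), the formin gene Inf2 (2.93 and -1.53), the inositol trisphosphate receptor gene Itpr3 (2.25 and -1.06), the inositol trisphosphate kinase gene Itpkb (2.46 and -1.45) and the AP-3 adaptor gene Ap3d1 (1.88 and -1.02) were of this kind. Chst1, a sulfotransferase gene with 1 read in 16 C, had the largest fitted difference of the 17. It was at 0.754, 0.965, 8.48, 6.29 and 7.91 CPM in 16 L, 3.94, 7.95, 2.84, 4.68 and 3.52 CPM on chow and 1.31, 2.26, 0.868, 1.73 and 1.03 CPM on high-fat diet.

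The 3 genes that fell in both experiments were Slc22a15, Kdm6b and Aebp2, and their leptin libraries all lay below 16 C and their high-fat libraries all below chow. Slc22a15, a solute carrier, was at 30.1, 55.8 and 20.7 CPM in 16 C, 10.7, 9.00, 5.99, 11.0 and 4.90 CPM in 16 L, 22.5, 16.6, 21.7, 31.5 and 12.4 CPM on chow and 4.31, 7.46, 4.12, 9.54 and 11.5 CPM on high-fat diet. Its effects in the separate fits were -2.02 and -1.51. In the fit of the 18 libraries its difference of -0.62 did not pass the test (standard error 0.57, adjusted p = 0.433) and turned to 0.43 with total-count scaling. Kdm6b, the demethylase of lysine 27 on histone H3, was at 298, 488 and 352 CPM in 16 C, 154, 39.3, 79.8, 83.4 and 89.3 CPM in 16 L, 67.7, 91.4, 92.5, 149.6 and 57.8 CPM on chow and 43.1, 48.4, 41.9, 51.1 and 44.7 CPM on high-fat diet. Its difference of -1.09 did not pass the test with 16 L 18 and did without it (adjusted p = 0.0918 with it and 0.0108 without it). Aebp2, a cofactor of the Polycomb complex PRC2, fell in both but more with leptin (-1.95 and -0.85). Its difference of -1.18 had an adjusted p of 0.0266, and the call was lost with total-count scaling (-0.16), without 4-week HFD 13 (-1.01) and without 16 C 2 (-1.03).

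**Figure D3:**
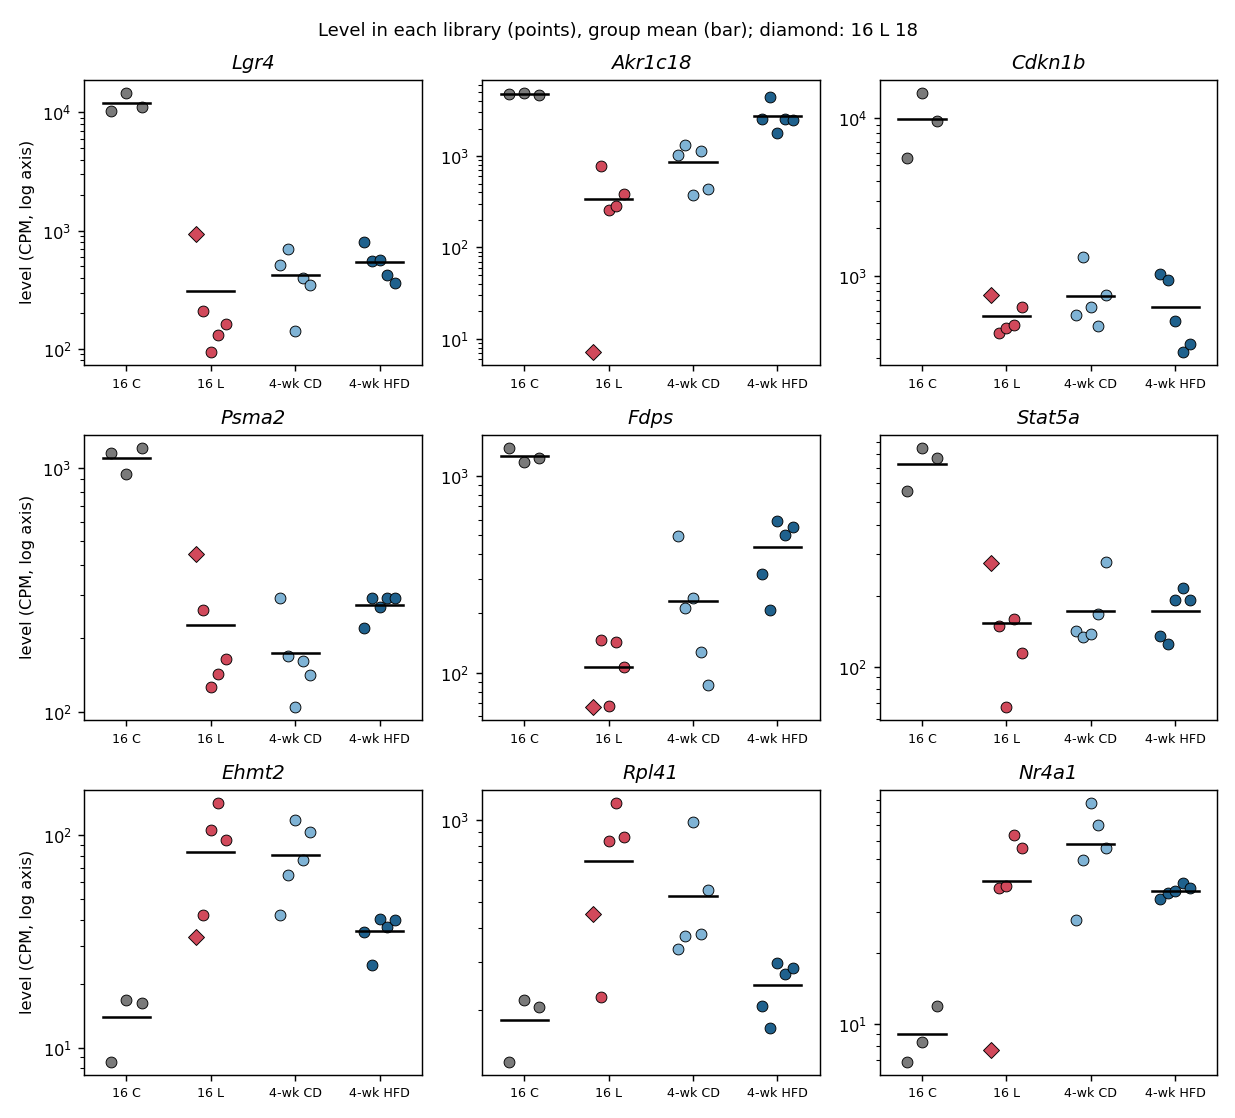
Level of 9 genes in each library of the 4 groups (points, CPM, log axis; bars are group means; the diamond is 16 L 18). In 6 of the panels the 16 C libraries lie above all leptin libraries, in Ehmt2 and Rpl41 below them, and Akr1c18, Ehmt2 and Rpl41 also separate chow from high-fat diet.

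Gene lists were read by how many members were called and by the list median relative to all genes, beside the background of 16.3% positive and 10.9% negative, or 23.7% and 19.8% without 16 L 18. The lists were chosen with results of these data known, and their counts carry no test. Calls shifted toward positive with total-count scaling, where 5383 of all 12947 genes tested were positive and 529 negative. Of the lists with more negative than positive calls, only the proteasome list then still had more negative ones. List counts from an alternative fit are to be read beside the all-gene counts of that fit. These were 1242 positive and 981 negative of 13548 without 16 C 1, and 1193 and 953 of 13551 without 16 C 3. Without 16 L 20 and 23 they were 1241 and 813 of 12708.

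Cytosolic and mitochondrial ribosomal proteins parted. Of 79 tested genes for proteins of the cytosolic ribosome, 34 had a positive difference and 2 a negative one, and 40 and 5 without 16 L 18, with a median of 0.76 relative to all genes. The median effect over them was 0.81 for leptin and -0.27 for diet. Rpl41 was at 129, 217 and 204 CPM in 16 C, 450.2, 222, 832, 1156 and 865 CPM in 16 L, 374, 977, 381, 550.5 and 334 CPM on chow and 297, 270.5, 285, 207 and 172 CPM on high-fat diet. Its leptin libraries all exceeded 16 C, 16 L 19 only narrowly, and its high-fat libraries all lay below chow, with a difference of 3.03 (adjusted p = 0.00297). Rps20 (2.69) and Rpl37a (2.53) were called in the same direction. Pseudogenes share reads with these genes, so their counts are uncertain. Of 77 genes for proteins of the mitochondrial ribosome, 1 had a positive and 23 a negative difference, 2 and 47 without 16 L 18, and the median was -1.18 relative to all genes. With total-count scaling the calls turned to 14 positive and 7 negative, while the relative median was -1.30. Mrpl32 was at 228, 160.2 and 229.9 CPM in 16 C and 85.8, 42.1, 17.5, 19.7 and 22.2 CPM in 16 L, with 40.3 CPM on chow and 60.3 CPM on high-fat diet on average, and had a difference of -3.01. Mrps22 was called lower (-3.15) and Mrpl52 was the member called higher (2.42).

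The nuclear genes of oxidative phosphorylation went with the mitochondrial ribosome. Of 75, 3 had a positive and 15 a negative difference, 3 and 41 without 16 L 18, with a median of -0.96 relative to all genes, and with total-count scaling 16 were positive and 3 negative at a relative median of -1.01. Uqcrc1, a core subunit of complex III, was at 1708, 686 and 1195 CPM in 16 C and 463, 188, 103, 102 and 148 CPM in 16 L, and at 142, 99.4, 114, 80.3 and 256 CPM on chow and 290.4, 283, 274, 183 and 149 CPM on high-fat diet. All leptin libraries were below 16 C and the diet groups overlapped, with a difference of -3.34 (adjusted p = 0.00203). Ndufv2 of complex I was also lower (-2.52), whereas Atp5d, a subunit of the ATP synthase, was higher at 2.36, from 49.8, 55.1 and 35.3 CPM in 16 C to 158, 146, 249, 271 and 262 CPM in 16 L. Of the 13 genes encoded by the mitochondrial genome 0 were called, with and without 16 L 18, by the same test, and the smallest adjusted p was 0.158 for mt-Nd6. With total-count scaling 2 of the 13 were higher, mt-Nd6 (2.53, adjusted p = 0.0143) and mt-Nd4 (2.20, adjusted p = 0.0242).

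Proteasome genes had the lowest median of the 41 pathway lists, -1.55 relative to all genes. Of 34 subunits, 14 had a negative difference and 1 a positive one, 24 and 1 without 16 L 18, and with total-count scaling 6 and 3. Psma2, an alpha subunit of the core particle, was at 1157, 941 and 1212 CPM in 16 C, 443, 261, 127, 142 and 164 CPM in 16 L, 170.0, 105, 162, 141 and 293 CPM on chow and 269, 294, 294, 221 and 294 CPM on high-fat diet. The leptin libraries all lay below 16 C while the diet groups overlapped, with a difference of -2.93 (standard error 0.51, adjusted p = 0.00107). Psma5 (-1.96) and Psmd11 (-2.02), a subunit of the regulatory particle, were lower too. Of 29 genes of the unfolded protein response, 5 were lower and 0 higher, 9 and 1 without 16 L 18. Canx, the lectin chaperone calnexin, was at 16535, 20428 and 15606 CPM in 16 C and 4567, 1149, 1071, 1015 and 1248 CPM in 16 L, with 1143 CPM on chow and 1399.6 CPM on high-fat diet on average, and its difference was -3.57. Derl2 (-1.95), of the degradation pathway of the endoplasmic reticulum, and the disulfide isomerase gene Pdia4 (-2.60) were lower as well, the latter not called with total-count scaling (-1.60). Serp1, which protects nascent membrane proteins under stress, was at 123, 137 and 133 CPM in 16 C, 838, 383, 331, 334 and 239 CPM in 16 L, 295, 210.0, 174, 118 and 204 CPM on chow and 477, 309.6, 283, 437 and 645 CPM on high-fat diet. All its leptin libraries were above 16 C, its diet groups overlapped, and its difference of 0.60 did not pass the test (adjusted p = 0.406), whereas with total-count scaling it was higher and passed (adjusted p = 0.00958). Among 27 heat shock and chaperonin genes, 3 were lower and 2 higher, and of these Bag3, a cochaperone of Hsp70, was at 0, 6.91 and 9.27 CPM in 16 C and 49.2, 28.9, 142, 113 and 105 CPM in 16 L (4.83, adjusted p = 0.00115).

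Translation factors were called in both directions, 5 and 5 of 43. Eif4a1, the helicase that opens mRNA for initiation, was lower at -2.66, and Eif2s1, the alpha subunit of eIF2, at -2.62. The subunit Eif2b1 of the eIF2 exchange factor was lower at -3.38. Of 23 aminoacyl-tRNA synthetase genes 4 were higher and 3 lower, with Vars higher (2.74) and Eprs (-2.14) and the scaffold gene Eef1e1 (-3.21) lower.

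Cell cycle genes had a median of -1.40 relative to all genes. Of 42, 15 had a negative and 4 a positive difference, and 16 and 6 without 16 L 18. With total-count scaling the counts were 4 and 7, at a relative median of -1.37. Cdkn1b, the inhibitor p27 that holds cells in G1, was at 5553, 14438 and 9501 CPM in 16 C, 762, 436, 470.0, 487 and 634 CPM in 16 L, 1307, 637, 479, 753 and 565 CPM on chow and 521, 329, 372, 1024 and 937 CPM on high-fat diet. Only 16 C was high, and the other groups overlapped, with a difference of -3.91 (standard error 0.60, adjusted p = 0.000497). Rrm2, a subunit of the reductase that makes deoxyribonucleotides, was at 68.7, 143 and 98.0 CPM in 16 C and 38.5, 18.9, 9.98, 5.51 and 21.8 CPM in 16 L, and at 28.9, 7.29, 10.1, 12.8 and 17.8 CPM on chow and 38.0, 42.7, 38.8, 20.6 and 27.5 CPM on high-fat diet. Its difference was -3.51 (adjusted p = 0.0014). The cyclin gene Ccnd3 was higher instead, at 2.71, from 7.73, 11.7 and 7.06 CPM in 16 C to 50.7, 30.2, 48.4, 31.5 and 58.4 CPM in 16 L.

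Many mitotic genes are known to carry a short promoter element, the cell cycle homology region, written TTTGAA and searched here on both strands. Of the 33 members with a promoter in RefSeq's table for GRCm38.p6, 8 held these letters in the 250 bases before the start, which is 24.2%, against 12.8% of the 9055 genes tested that have a promoter there, 11.0% of those with a positive and 13.1% of those with a negative difference. A match is a description and not a binding site. Of the 8, Cdk1, Ccnb2, Cdc20 and Rbl2 (-1.44) were called lower. E2f3 (-0.37), Mcm2 (-1.47), Mki67 (0.92) and Top2a (0.14) were not called. The promoters of 3 members that were called lower and hold the letters are printed, 5′ to 3′ on the gene's own strand, with the matches in capitals. They are Cdk1, the mitotic kinase (chr10:69352913-69353162, minus strand), its partner cyclin B2, Ccnb2 (chr9:70421555-70421804, minus strand), and Cdc20, an activator of the anaphase-promoting complex (chr4:118437344-118437593, minus strand), named here for their promoters after their values were seen.
Cdk1: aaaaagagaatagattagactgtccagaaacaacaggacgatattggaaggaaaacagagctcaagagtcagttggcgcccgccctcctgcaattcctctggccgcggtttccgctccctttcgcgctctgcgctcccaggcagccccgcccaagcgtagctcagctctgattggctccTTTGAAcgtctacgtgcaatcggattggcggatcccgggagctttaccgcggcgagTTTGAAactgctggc
Ccnb2: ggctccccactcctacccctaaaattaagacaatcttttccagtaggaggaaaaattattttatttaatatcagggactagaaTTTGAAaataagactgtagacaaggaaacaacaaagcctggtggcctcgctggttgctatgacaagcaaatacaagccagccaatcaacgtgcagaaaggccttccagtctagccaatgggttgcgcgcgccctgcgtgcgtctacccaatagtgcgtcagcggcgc
Cdc20: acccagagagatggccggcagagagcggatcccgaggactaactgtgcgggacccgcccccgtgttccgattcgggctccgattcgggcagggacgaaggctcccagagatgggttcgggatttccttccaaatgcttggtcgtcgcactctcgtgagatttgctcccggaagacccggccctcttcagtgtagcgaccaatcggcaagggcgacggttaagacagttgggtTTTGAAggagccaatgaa
Cdk1 was at 73.8, 47.1 and 63.5 CPM in 16 C and 17.3, 68.4, 14, 10.2 and 18.1 CPM in 16 L, and at 20.7, 3.31, 28.2, 14 and 51.5 CPM on chow and 71.5, 98.6, 82.9, 34.5 and 48.0 CPM on high-fat diet. Library 16 L 19 was as high as 16 C and the other 4 were lower, while 3 of the 5 high-fat libraries lay above all chow libraries, with a difference of -2.70 (adjusted p = 0.0199). Ccnb2 (-2.19, adjusted p = 0.0138) and Cdc20 (-2.69, adjusted p = 0.0206) were called in the same direction. Each call was lost without 1 or more single control libraries. Without 16 C 1 the difference was -2.52 for Cdk1 and -2.67 for Cdc20, without 16 C 3 it was -2.64 for Cdk1, and without 16 C 2 it was -1.74 for Ccnb2, and none of these passed the test. With total-count scaling the values were -1.69, -1.16 and -1.72, also without a call.
The letters TTCNNNGAA, to which STAT proteins bind, were searched in the same way. They were in 1 of 14 leptin receptor and JAK-STAT genes with a promoter, Socs3, and in 7.13% of all genes with one, 7.36% of the positive and 7.14% of the negative genes. Other letters were searched too. TGACGTCA was in 2 of 20 immediate early genes with a promoter (10%), against 2.99% of all genes with one. GAANNTTC was in 6 of 21 heat shock and chaperonin genes (28.6%), against 6.15%. The shares come from several searches and were not tested.

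Lipid genes were read in separate lists, with no test between them. Of 30 genes of cholesterol synthesis, uptake and transport, 9 had a negative and 3 a positive difference, and 11 and 8 without 16 L 18. With total-count scaling the counts were 5 and 10, at a relative median of -0.362. Fdps, which makes farnesyl pyrophosphate, was at 1394, 1179 and 1231 CPM in 16 C, 66.9, 147, 67.4, 144 and 107 CPM in 16 L, 212, 238, 128, 86.7 and 496 CPM on chow and 590.1, 501, 553, 318 and 208 CPM on high-fat diet. Its 16 C libraries lay above all others and the diet groups overlapped, with a difference of -4.48 (adjusted p = 0.00028). Soat1, which esterifies cholesterol, was lower at -2.55. Of 24 genes of fatty acid oxidation, 6 were lower and 1 higher, and 2 and 0 without 16 C 3. With total-count scaling the counts were 1 and 6, at a relative median of -0.825. Acadm (-1.80) and Hadh (-2.23), which act on medium- and short-chain fatty acids, were lower but lost their calls with total-count scaling (-0.77 and -1.29). Of 21 lipid droplet genes 5 were higher and 0 lower, 6 and 1 without 16 L 18, 9 and 0 with total-count scaling, and 1 and 0 without 16 C 3. Lipe, the hormone-sensitive lipase, was at 1.72, 1.58 and 2.65 CPM in 16 C and 6.79, 15.3, 11.5, 11.0 and 10.9 CPM in 16 L, with a difference of 2.25. In fatty acid synthesis Fasn, the fatty acid synthase, was higher (2.57, adjusted p = 0.0006), from 12.9, 18.4 and 14.1 CPM to 37.0, 63.5, 58.4, 94.4 and 59.1 CPM, and Acsl4, which activates arachidonic acid, was lower (-3.90, adjusted p = 0.000291).

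In glycolysis 5 of 28 genes were lower and 3 higher. Hk2, a hexokinase, was at 588, 706 and 557 CPM in 16 C and 21.7, 46.1, 84.3, 72.4 and 109 CPM in 16 L (-2.61), and the pyruvate dehydrogenase kinase gene Pdk2 was higher (1.86). Of the LDL receptor family 6 of 15 were higher and 0 lower, 8 and 2 without 16 L 18, with a median of 1.31 relative to all genes. The counts were 3 and 0 without 16 C 1, 3 and 0 without 16 C 3, and 2 and 0 without 16 L 20 and 23. The relative median of this list ranged from 0.07 to 1.59 over the alternative settings. Lrp10 was at 17.2, 18.3 and 19.9 CPM in 16 C and 32.2, 110.0, 110.3, 108 and 111 CPM in 16 L, with 99.9 CPM on chow and 137 CPM on high-fat diet on average, and its difference was 1.89. Lrp5, the Wnt coreceptor, was at 0, 1.30 and 0 CPM in 16 C and 1.89, 23.4, 16.5, 18.9 and 14.3 CPM in 16 L (adjusted p = 0.00455). Of 27 amino acid transporter genes 6 were higher and 2 lower, the latter being Slc36a4 (-2.86, adjusted p = 0.000135) and the taurine transporter Slc6a6 (-2.48), which was not called with total-count scaling (-1.43).

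**Figure D4:**
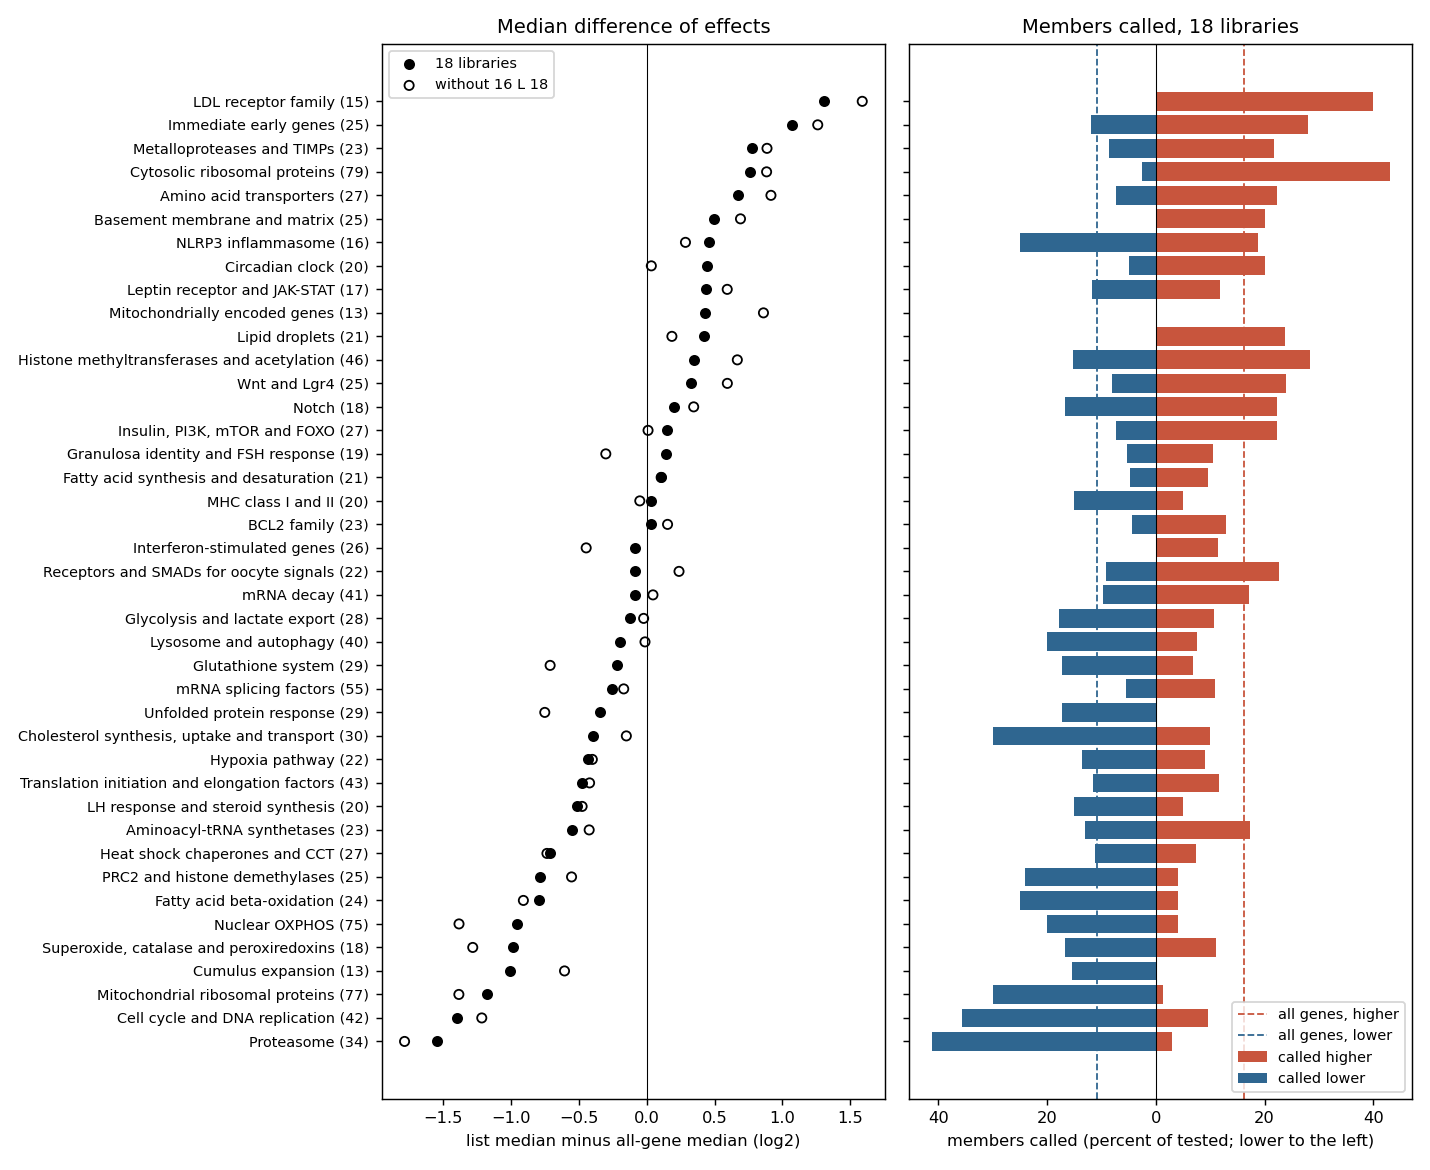
Left, median difference of effects of 41 pathway lists relative to the median of all genes (log2; filled, 18 libraries; open, without 16 L 18; number of tested members in brackets). Right, percent of tested members called positive (right) or negative (left), with dashed lines at the 16.3% and 10.9% of all genes. The proteasome, cell cycle, cholesterol and mitochondrial ribosome lists extend farthest to the left. The cytosolic ribosome and LDL receptor lists extend farthest to the right.

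Genes of ovulation and of the follicle were mostly not called. Of 13 cumulus expansion genes 2 were lower and 0 higher. Tnfaip6, which cross-links the hyaluronan matrix, was at 1235, 2504 and 2164 CPM in 16 C and 2.07, 281, 345, 189.6 and 440.0 CPM in 16 L, with 398 CPM on chow and 534 CPM on high-fat diet on average. It was nearly absent from 16 L 18, all leptin libraries lay below 16 C, and its difference was -3.39 (adjusted p = 0.0147), or -3.07 without that library, and was not called with total-count scaling (-2.26, adjusted p = 0.0604). Of 20 genes of the luteinizing hormone response and steroid synthesis, 3 were lower and 1 higher. Star, which brings cholesterol into mitochondria, was at 295, 215 and 218 CPM in 16 C, 33.9, 72.7, 83.3, 112 and 91.5 CPM in 16 L, 214, 303, 435, 142 and 282 CPM on chow and 271, 314, 320.0, 310.0 and 264 CPM on high-fat diet. The leptin libraries all lay below 16 C and the diet groups overlapped, with a difference of -1.74 (adjusted p = 0.0121), which with total-count scaling was -0.69 and not called (adjusted p = 0.299). Of 22 receptor and SMAD genes for signals from the oocyte, 5 were higher and 2 lower. Id2, an inhibitor of basic helix-loop-helix factors downstream of BMP receptors, was at 1680.3, 3731 and 2131 CPM in 16 C and 575, 103, 150.2, 169 and 182 CPM in 16 L, with a difference of -4.19. Npr2, the receptor for C-type natriuretic peptide that keeps the oocyte in meiotic arrest, was higher at 2.02, and its high-fat mean of 31.4 CPM was below the chow mean of 64.5 CPM. Gja1, the gap junction protein connexin 43, was at 13803, 45870.4 and 16724 CPM in 16 C and 5209, 8376, 1401, 729 and 1828 CPM in 16 L, with a difference of -3.71 (adjusted p = 0.00859).

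In the leptin receptor and JAK-STAT list 2 of 17 genes were higher and 2 lower, or 5 and 4 without 16 L 18, which is close to the background. Lepr itself was at 13.7, 25.2 and 11.0 CPM in 16 C, 2.83, 4.18, 10.5, 15.7 and 13.6 CPM in 16 L, 42.3, 45.0, 10.5, 16.2 and 27.6 CPM on chow and 23.1, 17, 14.3, 26.5 and 26.4 CPM on high-fat diet. Its groups overlapped in both experiments and its difference was -0.53 (adjusted p = 0.594), or 0.53 with total-count scaling. Stat5a (chromosome 11, 100859351 to 100885169, plus strand), a transcription factor that the receptor activates, was at 558, 851 and 769 CPM in 16 C and 276, 149, 67.4, 159 and 114 CPM in 16 L, and at 133, 138, 167, 277 and 142 CPM on chow and 191, 216, 192, 135 and 125 CPM on high-fat diet. All leptin libraries lay below 16 C and the diet groups overlapped, with a difference of -2.25 (standard error 0.50, adjusted p = 0.0044). The phosphatases that switch the receptor off went opposite ways, with Ptpn2 lower (-2.04, adjusted p = 0.00273) and Ptpn1 higher (1.48, adjusted p = 0.0147, not called without 16 L 20 and 23). Socs3 was at 0.859, 2.01 and 1.76 CPM in 16 C and 3.77, 8.47, 1.5, 1.57 and 4.52 CPM in 16 L, and its difference of 1.05 did not pass the test (adjusted p = 0.415). Of 27 genes of insulin, PI3K, mTOR and FOXO signalling, 6 were higher and 2 lower. Akt2 (1.64) and Rptor (1.88), a kinase and a scaffold of the same pathway, were higher.

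Immediate early genes had a median of 1.07 relative to all genes, with 7 of 25 higher and 3 lower, and 13 and 3 without 16 L 18. The median effect over them was 0.84 for leptin and -0.65 for diet. Nr4a1, a nuclear receptor induced within minutes by hormones, was at 6.87, 8.35 and 11.9 CPM in 16 C, 7.73, 37.6, 38.4, 63.7 and 55.8 CPM in 16 L, 49.9, 87.4, 70.0, 56.1 and 27.6 CPM on chow and 36.6, 39.8, 38.0, 33.9 and 35.9 CPM on high-fat diet. Library 16 L 18 was at the level of 16 C and the other 4 leptin libraries were above it, with a difference of 2.79 (adjusted p = 0.005). Ier5 was higher (2.50), from 6.87, 9.79 and 11.0 CPM in 16 C to 29.2, 13.9, 30.4, 21.2 and 35.4 CPM in 16 L and from 26.4, 18.5, 29.0, 26.8 and 13.3 CPM on chow to 13.7, 10.2, 7.59, 14.2 and 10.1 CPM on high-fat diet. Myc went the other way (-3.22), at 291, 347 and 343 CPM in 16 C and 52.4, 112, 20.5, 28.3 and 32.0 CPM in 16 L. In the Wnt list, where 6 of 25 genes were higher and 2 lower, the 2 lower ones were Lgr4 and Znrf3 (-3.69), a ubiquitin ligase that R-spondins inhibit through Lgr4.

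In the NLRP3 inflammasome list 3 of 16 genes were higher and 4 lower, and 5 and 4 without 16 L 18. Nlrp3 had 7 reads in all, from 2 libraries of 16 L, and was under the filter. Casp1, Pycard, Il1b and Il18, which encode the protease, the adaptor and the cytokines of the complex, were not called. With total-count scaling 8 genes of the list were higher and 2 lower, and Casp1 (3.92, adjusted p = 0.0382), Pycard (2.30, adjusted p = 0.0196) and Il1b (adjusted p = 0.0311) passed the test. Casp1 was at 0, 2.30 and 0.882 CPM in 16 C and 21.7, 0.750, 8.48, 5.51 and 4.14 CPM in 16 L, with a difference of 2.95 (standard error 1.51, adjusted p = 0.149). Pycard was at 8.59, 18.4 and 6.62 CPM in 16 C and 63.5, 4.18, 22.9, 14.9 and 22.6 CPM in 16 L, and its difference of 1.39 had an adjusted p of 0.2. Library 16 L 18 was highest for both. Il1b was at 0, 0.214, 8.98, 8.65 and 16.2 CPM in 16 L with 1 read in 16 C, and with TMM scaling passed the test without 16 L 18 but not with it (adjusted p = 0.0934 with it and 0.0389 without it). Its 3 libraries with reads above the others, 16 L 20, 21 and 23, include the pair with the highest macrophage marker sums. The lower members were led by Il1r1, the receptor of interleukin 1, at 683, 609.6 and 821 CPM in 16 C and 23.8, 347, 86.3, 88.9 and 77.2 CPM in 16 L (-3.25, adjusted p = 0.00467), the ATP-gated channel gene P2rx4 (-1.80, not called with total-count scaling at -0.78) and the kinase gene Nek7 (-2.24), which licenses Nlrp3. Of the genes under the filter with enough reads, Socs1 differed by 0.60 and Tnf by 0.23 in mean log2(RPM + 1), with reads scaled by library totals alone (two-sided exact permutation test within each experiment, p = 0.323 and p = 0.438).

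In the glutathione system 5 of 29 were lower and 2 higher, and 9 and 2 without 16 L 18. The counts were 1 and 9 with total-count scaling, at a relative median of -0.348, and 3 and 4 without 16 L 20 and 23. Mgst1, a microsomal glutathione transferase, was at 7521, 4105 and 5977 CPM in 16 C and 1234, 578, 511, 359.5 and 578 CPM in 16 L, with a difference of -3.76 (adjusted p = 0.000641), whereas the secreted peroxidase gene Gpx3 was higher (2.65), at 69.5, 39.6 and 72.8 CPM in 16 C and 57.1, 659, 503, 499.5 and 527 CPM in 16 L. Of 18 genes for superoxide dismutases, catalase and peroxiredoxins 3 were lower and 2 higher, 9 and 1 without 16 L 18, and 2 and 4 with total-count scaling. Prdx1 was at 4521, 3175 and 4778 CPM in 16 C, 1621, 935, 570.2, 769 and 775 CPM in 16 L, 1204, 602, 819, 381 and 1549 CPM on chow and 1453, 1549, 1653, 1406 and 2072 CPM on high-fat diet. All leptin libraries were below 16 C and the diet groups overlapped, with a difference of -2.99 (adjusted p = 0.00164), and Prdx4 was lower too (-2.07). In the hypoxia list 3 of 22 were lower and 2 higher, with the mitophagy gene Bnip3 at -3.64, Arnt, the partner of Hif1a, at -2.15, and the prolyl hydroxylase gene Egln2 at 2.23.

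Of 46 genes of histone methylation and acetylation 13 were higher and 7 lower, 19 and 8 without 16 L 18, while of 25 PRC2 and demethylase genes 1 was higher and 6 lower, 3 and 7 without it, and 7 and 2 with total-count scaling. Hdac7, a class IIa deacetylase, was at 1.72, 2.45 and 0.882 CPM in 16 C, 9.43, 7.5, 12.5, 18.1 and 14.3 CPM in 16 L, 4.81, 7.95, 6.90, 18.3 and 4.64 CPM on chow and 4.18, 2.71, 3.25, 1.42 and 1.82 CPM on high-fat diet (4.42, adjusted p = 0.0011). Nsd1, which methylates lysine 36 on histone H3, was at 1134, 908 and 919.5 CPM in 16 C and 123, 183, 95.8, 107 and 102 CPM in 16 L (-3.01, adjusted p = 0.000251). The demethylase genes Kdm5b (-2.39) and Kdm5c (-2.07) and the PRC2 subunit gene Eed (-1.58) were lower, and Eed was not called with total-count scaling (-0.59). Splicing and decay lists were near the background, with 6 higher and 3 lower of 55 and 7 higher and 4 lower of 41. In them Srsf2 (-3.92), Tob1 (-3.56), Btg1 (-3.68) and Zc3h12c (-3.42) were lower and Ddx17 (3.16) was higher, the last with 245, 515, 333, 457 and 213 CPM on chow and 80.1, 87.3, 93.9, 185 and 154 CPM on high-fat diet.

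In the basement membrane list 5 of 25 were higher and 0 lower, 10 and 1 without 16 L 18, and 14 and 0 with total-count scaling. Hspg2, the proteoglycan perlecan, was at 15.5, 24.2 and 21.6 CPM in 16 C and 5.66, 168, 133, 179 and 135 CPM in 16 L, and at 165, 267, 184, 122 and 161 CPM on chow and 110.3, 109, 94.2, 142 and 108 CPM on high-fat diet. It was lowest in 16 L 18 and above 16 C in the other 4, with a difference of 3.25 (standard error 0.80), or 3.56 without that library. Fn1, fibronectin, was higher (3.18), at 40.4, 132 and 47.2 CPM in 16 C and 128, 117, 583, 299 and 645 CPM in 16 L, as was the laminin gene Lamb2 (1.75). Of 23 metalloprotease and inhibitor genes 5 were higher and 2 lower, or 1 and 2 without 16 L 20 and 23, the lower ones being the sheddases Adam10 (-2.91) and Adam17 (-2.36), and Adam15 was higher (2.73). Adam10 was at 3248, 6013 and 4511 CPM in 16 C and 801, 647, 607, 413 and 566 CPM in 16 L.

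**Figure D5:**
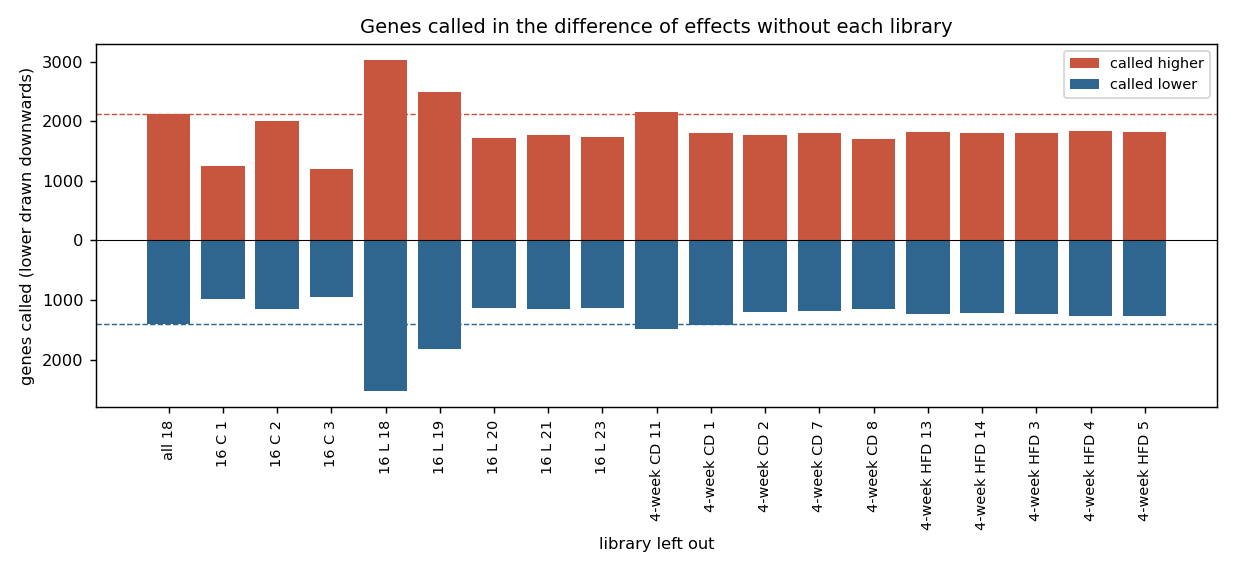
Number of genes called in the difference of effects with all 18 libraries and without each library in turn (positive upward, negative downward; dashed lines, all 18). The counts are highest without 16 L 18, at 3019 and 2523, and lowest without 16 C 3, at 1193 and 953.

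The number of calls rested on a few libraries of the leptin experiment. Without 16 C 1 there were 1242 positive and 981 negative genes, and without 16 C 3 there were 1193 and 953, while leaving out any 4-week library gave 1693 to 2149 positive and 1145 to 1493 negative genes. Without 16 L 18 and 21 together the counts were 2778 and 2323, and without 16 L 20 and 23 together 1241 and 813. The list medians named above kept their sign against the median of all genes in each of these fits for the cytosolic ribosomal, mitochondrial ribosomal, oxidative phosphorylation, proteasome, cell cycle, LDL receptor and immediate early lists.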

How the data were processed

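Cumulus cells were profiled by Smart-seq2, a full-length cDNA method without molecular identifiers. The authors deposited raw counts per gene, made from reads trimmed with Trim Galore 0.4.2 and aligned with HISAT2 2.0.5. Here 18 libraries entered a single edgeR 4.0.16 quasi-likelihood fit (R 4.3.3) with a mean for each of the 4 groups, TMM scaling, edgeR's filter on low counts and Benjamini-Hochberg adjustment over all genes tested at 0.05. The difference of effects, the leptin effect and the diet effect were contrasts of this fit, which was repeated without 16 L 18. Alternatives used DESeq2 1.42.0, limma-voom (limma 3.58.1), other scalings, other filters and each library left out. Genes under the filter with at least 10 reads were tested by exact permutation on log2(RPM + 1). Promoters came from RefSeq.

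Named genes are the 10 largest differences on each side that were called with and without 16 L 18 at a mean of at least 10 RPM, genes called in both effects, up to 3 members of each list with the smallest adjusted p, and genes the study names. Comparison and lists were chosen with earlier results of these data known. Total counts of 1104611 to 13207018 limit the precision for low genes. The labels take the cells of a library from 1 complex without saying whether libraries of a group came from separate mice, while the study's methods describe about 50 cells per animal. The p-values measure the spread between libraries, which may be technical, and no replicate numbers pair the groups. The fit was tested on simulated data, where 3 of 12747 unchanged genes were called. Some genes the rule names are not reported here. The count table held 0 columns that no label matched.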

Additional observations from a re-analysis of the deposited data

Results flagged for a closer look

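The groups 16 L, 4-week CD and 4-week HFD were searched for a library far from the others. The 16 C group, with 3 libraries, was not searched. Its cumulus and granulosa markers summed to 54218 CPM in 16 C 2, against 21267 and 25155 CPM in 16 C 1 and 3. Of the 390 sets of values searched, 28 (7.18%) held such a library by Dixon's ratio, which chance alone gives in about 1 in 20. Of these 28, 16 were library 16 L 18. In CPM, this library lay below the other leptin libraries for Adam15 at 6.6 against 25.3 to 39.3, Akr1c18 at 7.16 against 257 to 776, Gpx3 at 57.1 against 499.5 to 659, Hspg2 at 5.66 against 133 to 179, Lrp10 at 32.2 against 108 to 111 and Lrp5 at 1.89 against 14.3 to 23.4, and likewise for Nr4a1 at 7.73 against 37.6 to 63.7, P2rx4 at 38.8 against 81.0 to 107, Rptor at 11.3 against 37.9 to 44.2, Tnfaip6 at 2.07 against 189.6 to 440.0 and Vars at 11.1 against 40.9 to 60.3. It lay above them for Canx at 4567 against 1015 to 1248, Derl2 at 232 against 77.9 to 95.3, Ndufv2 at 325 against 104 to 144 and Psmd11 at 176 against 61.8 to 79.2. In 16 L 19 the outlying value was Mrpl52 at 29.8 against 87.5 to 109 CPM. In 4-week CD 2 the outlying values were Hadh at 45.0 against 102 to 131, Rpl37a at 424 against 227 to 249 and Zc3h12c at 7.29 against 18.5 to 26.5 CPM. In 4-week HFD 13 the outlying values were Aebp2 at 62.4 against 36.9 to 42.3, Kdm5c at 149.6 against 82.2 to 96.9 and Lamb2 at 99.7 against 64.7 to 69.9 CPM. In 4-week HFD 14 the outlying values were Il1b at 2.46 against 0 to 0.102 and P2rx4 at 88.5 against 115 to 122 CPM. Cumulus and granulosa markers summed to 13963 CPM in 16 L 19 and to 6506 to 8075 CPM in the other leptin libraries, and mitochondrial reads made up 4.71% of its counts against 0.435% to 0.654%. Oocyte markers summed to 75.4 CPM in 16 L 18 against 15.0 to 20.5 CPM in the rest of its group, and to 685 CPM in 4-week HFD 5 against 9.54 to 11.8 CPM. 

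The test of the difference between the leptin effect and the diet effect itself called 2113 genes higher and 1408 lower. In these genes the change from 16 C to 16 L differed from the change from 4-week CD to 4-week HFD.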

How the results depend on the processing

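No paired analysis was possible because 16 L shares no label number with 16 C and 4-week HFD shares none with 4-week CD. The 2113 positive, 1408 negative and 3850 leptin calls became 4163, 3722 and 8069 with limma-voom, 5383, 529 and 6584 with total-count scaling, 1209, 842 and 2291 with at least 10 counts required in every library, and 865, 539 and 1037 with a minimum log2 fold change of 1. The diet effect, with 0 calls, had 192 with DESeq2, 4106 with limma-voom, 69 with all 34 libraries in the fit and 1740 at an unadjusted p of 0.05. Genes called in both effects then numbered 67 in opposite directions and 8 in the same direction, 2038 and 653, 30 and 0, and 660 and 137, respectively. Leaving out 1 library at a time gave 1193 to 3019 positive genes, 953 to 2523 negative genes, 1933 to 5598 leptin calls, 0 to 52 diet calls, and 0 to 27 genes called in both effects in opposite and 0 to 2 in the same direction. The diet effect had 17 calls without 16 L 19, with 7 genes opposite and 1 the same. Chosen after seeing the data, the fit without 16 L 18 and 21 gave 2323 negative genes, 48 diet calls, 21 opposite and 2 the same, the fit without 16 L 20 and 23 gave 1241, 813 and 2211, and the overlap of the fits of each experiment alone gave 21 opposite and 3 the same. Those separate fits had 1004 leptin calls and 499 diet calls. Among genes that were not called, the difference turned sign for mt-Co2 (3.84, but -0.71 with limma-voom, and -0.75 without 16 L 19 to 5.43 without 4-week HFD 13) and, with total-count scaling, for Slc22a15 (0.43) and Lepr (0.53). The cause of these shifts was not tested. Of 160 called genes, 0 turned sign in any setting and 111 were called in each. They were chosen by the naming rule, with some called genes added for letters in their promoters. Choosing genes by small adjusted p or large difference in these libraries favours such stability, so the counts do not stand for all called genes. In simulated counts, 2%, 12%, 64% and 94% of differences of 2, 4, 8 and 16 fold were recovered, so the smaller ones were mostly missed there. The simulation gave all genes the same biological coefficient of variation, changed 50 genes at each size and had no difference in composition between groups. Its shares therefore need not hold for the data, where some small differences were called, such as that of Aebp2 (-1.18).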
